A study of Mus musculus with 6 samples.

Results

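The odorant receptors examined here are those of mouse chromosome 19 whose symbols run from Olfr1417 to Olfr1505. They were chosen by symbol alone, from probe sets that name 1 gene, and 56 of the 19938 genes measured met the rule, out of 1015 odorant receptors in all. Each of the 56 had a single probe set, and none was dropped for a low value. RefSeq lists 60 receptors in this range, and Olfr1425, Olfr1432, Olfr1437 and Olfr1458 had no probe set of their own. Cells were sorted for EGFP from dissected main olfactory epithelium of C57BL/6 embryos at E18.5. Both groups carry a targeted Fezf1 allele that expresses EGFP from the Fezf1 promoter: the Fezf1+/- cells have 1 such allele and 1 intact allele, and the Fezf1-/- cells have no intact allele. The sort therefore selected for EGFP driven by the Fezf1 promoter, in both genotypes. Its purity was not tested. There were 3 arrays per genotype, called heterozygous and null below, and whether a replicate was 1 embryo, a litter or a pool is not given in the labels.

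Odorant receptors are G protein-coupled receptors of the cilia of olfactory sensory neurons. Each mature neuron expresses 1 receptor gene, from 1 allele, so the level of a receptor in a tissue sample depends on how many neurons chose it. Receptor genes lie in clusters along the chromosomes, and neighbours are often close copies of each other. The receptors of chromosome 19 belong to class II, the large class of land vertebrates. RefSeq gives each of the 56 a systematic MOR name, in which the first number marks a subfamily of similar sequence. The 56 fall into 8 such subfamilies: 30 are MOR202, 8 MOR266, 5 MOR239, 4 MOR212, 3 MOR211, 3 MOR214, 2 MOR215 and 1 MOR127. Their numbers follow their order on the chromosome, and non-receptor genes divide them into 4 stretches, of 4, 10, 2 and 40 measured receptors.

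Values are log2 signals of single probe sets, and differences are null minus heterozygous on that log2 scale. Signals rank arrays for a given probe set and not one receptor against another, because probe sets differ in binding. The lower quartile of all probe sets lay between 4.30 and 4.44 on the 6 arrays and the median between 5.82 and 5.95. The targeted gene, Fezf1, read 11.12 to 11.30 on heterozygous arrays and 5.56 to 6.28 on null arrays. Null replicate 1 stood apart, with correlations across genes of 0.905 to 0.935 to the other arrays against 0.975 to 0.995 among those 5. On it, 12 markers of mature olfactory neurons averaged 7.43, against 8.84 and 8.97 on the other null arrays and 9.59 to 10.14 on the heterozygous arrays. The mean of 11 measured mesenchyme and bone markers was 10.27 on that array and 6.35 to 7.49 on the others, and the mean of 12 myeloid markers was 7.62 there and 5.33 to 5.67 on the others. The part of these markers in the receptor values was not tested, and the main results below are given with and without this array.

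The first question was whether the chromosome 19 receptors differ between cells with and without Fezf1. Over all 6 arrays, 53 of the 56 differences were negative, or 94.6%, against 45.2% of all genes and 92.4% of the other odorant receptors. The 56 had a median difference of -0.62 and a range from -2.79 to 0.40, while the median of all genes was 0.02. By limma with Benjamini-Hochberg adjustment over all genes, 1 receptor, Olfr1442, fell (0.456% of all genes were called lower) and 0 rose (0.0953%). That is 1.79% of the 56, against 77 of the 959 other odorant receptors called lower in the same fit, or 8.03%. At an unadjusted p under 0.05 there were 23 lower receptors, or 41.1% (5.25% of all genes, 44.4% of the other odorant receptors), and 0 higher (4.23% of all genes). In 23 receptors all 3 null values lay below all 3 heterozygous values, or 41.1%, against 8.77% of all genes and 45.3% of the other 959 odorant receptors, whose median difference was -0.73. In 0 of the 56 did all null values lie above the heterozygous ones (9.72% of all genes). Because each value comes from bulk RNA of a sort, fewer neurons using a receptor and less receptor RNA per neuron cannot be told apart.

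Null replicate 1 carried much of this shift. It had the lowest signal of the 6 arrays in 49 of the 56 receptors, and the median receptor stood 1.40 below its heterozygous mean on it, a shift of -1.40, against -0.33 and -0.42 on null replicates 2 and 3. In the 5 arrays without it the median difference was -0.36. There 38 receptors had a negative difference, or 67.9%, against 44.7% of all genes and 73.7% of the other odorant receptors. Of the 18 with a positive difference, 15 had been negative over 6 arrays. The spread shrank as well, with a median standard error of 0.22 against 0.36. In those 5 arrays 11 of the 56 fell, or 19.6% (1.67% of all genes), and so did 177 of the 959 other odorant receptors, while 0 of the 56 rose (0.993% of all genes). The 11 were Olfr1419, Olfr1420, Olfr1423, Olfr1427, Olfr1428, Olfr1442, Olfr1461, Olfr1463, Olfr1466, Olfr1484 and Olfr1489, with differences from -2.93 to -0.95. Both remaining null values lay below all heterozygous values in 23 receptors, or 41.1% (16.3% of all genes, 45.4% of the other odorant receptors). They lay above them in 4, or 7.14% (19.9% of all genes, 7.51% of the other odorant receptors): Olfr1440, Olfr1465, Olfr1500 and Olfr1505.

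**Figure D1:**
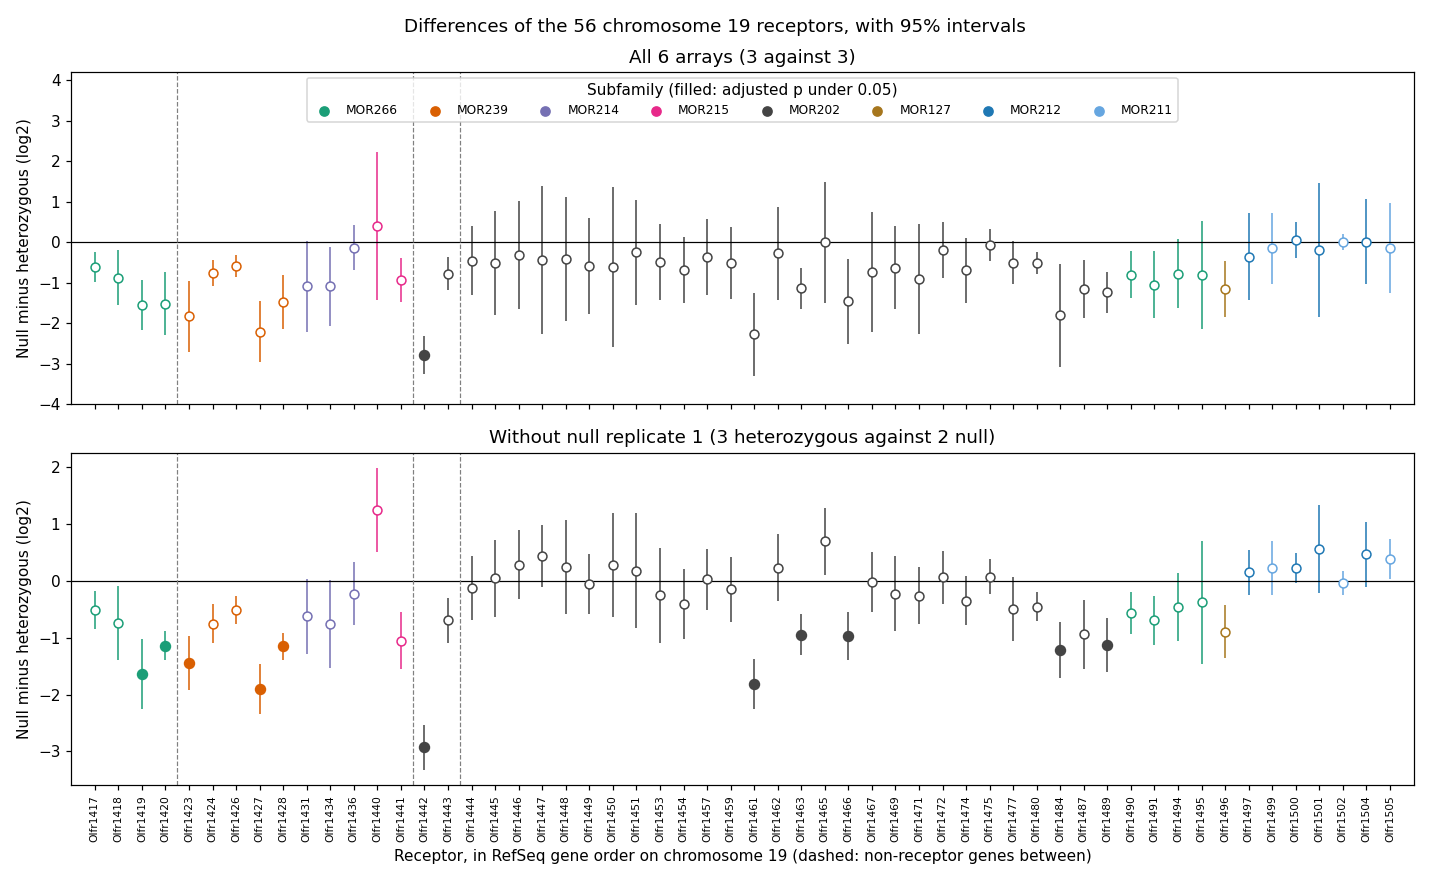
Null minus heterozygous difference (log2, vertical axis) of each of the 56 receptors in RefSeq gene order (horizontal axis), over all 6 arrays (top) and without null replicate 1 (bottom); bars are 95% intervals of the limma fit, colours mark MOR subfamilies, filled points passed an adjusted p of 0.05 and dashed lines mark non-receptor genes. Olfr1442 is the single filled point in the top panel, 11 points are filled in the bottom panel, and the points from Olfr1444 to Olfr1459 lie near 0 there.

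Olfr1442, of subfamily MOR202, fell the furthest. Its signal was 7.10, 7.32 and 7.65 on the heterozygous arrays and 4.85, 4.37 and 4.49 on null replicates 1, 2 and 3. The groups lay far apart, and null replicate 1 was here the highest of the null arrays. The means were 7.36 ± 0.28 and 4.57 ± 0.25 (SD, n = 3 each), a difference of -2.79 (SE 0.19, limma adjusted p = 0.0042). Without null replicate 1 the difference was -2.93 (SE 0.17, limma adjusted p = 0.000609). The null values were near the lower quartile of the arrays, and no fold is given. The 3 receptors whose values followed it most closely over the 6 arrays were Olfr1419 (Pearson r = 0.96), Olfr1424 (0.95) and Olfr1489 (0.94), a description that the difference between the groups dominates.

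Olfr1442 is shown here by the 250 bases before its annotated start, next to Olfr1419, since these were the receptors that fell in either fit whose RefSeq start is not already the start codon. The sequences are from RefSeq, build GRCm38.p6, read 5′ to 3′, at chr19:12673929-12674178 on the plus strand for Olfr1442 and chr19:11871306-11871555 on the minus strand for Olfr1419. Capitals mark adjoining matches to the homeodomain-type motif TAATNA on either strand.
Olfr1442: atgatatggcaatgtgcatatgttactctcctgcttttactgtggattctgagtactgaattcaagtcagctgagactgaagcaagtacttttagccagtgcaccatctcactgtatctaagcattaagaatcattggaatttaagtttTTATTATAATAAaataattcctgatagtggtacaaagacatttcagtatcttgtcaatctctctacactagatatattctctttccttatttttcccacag
Olfr1419: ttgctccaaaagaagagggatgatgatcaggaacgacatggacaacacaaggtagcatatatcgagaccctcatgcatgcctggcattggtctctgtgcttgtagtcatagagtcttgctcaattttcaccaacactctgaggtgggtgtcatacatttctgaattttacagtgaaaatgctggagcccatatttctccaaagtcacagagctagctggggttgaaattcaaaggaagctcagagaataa
Olfr1442 holds 2 matches, whose first bases lie 101 and 95 bases before the start, and Olfr1419 holds 0 in this window. Homeodomain proteins such as Lhx2 and Ebf proteins are known regulators of receptor promoters, and the motifs TAATNA and CCCNNGGG were searched on both strands in the windows of all genes. TAATNA occurred in 38 of the 54 chromosome 19 receptors with a window, or 70.4%, in 63.6% of 890 windows of other odorant receptors and in 24.3% of all 32851 windows. The chromosome 19 windows had a median of 66.8% A and T, against 47.6% in all windows, which raises the frequency of such a motif. It was present in 6 of the 11 receptors that fell in either fit (54.5%) and in 32 of the other 43 (74.4%). CCCNNGGG, the Ebf-type motif, occurred in 1 chromosome 19 window, that of Olfr1443 (1.85%), in 2.81% of the windows of other odorant receptors and in 11.8% of all windows. In 47 of the 54 the annotated start is the start codon itself, so most of these windows precede the coding sequence and need not hold the promoter. In the 2 printed genes the first ATG follows at base 29 (Olfr1442) and base 45 (Olfr1419). Whether transcription begins at their annotated starts was not examined, so these 2 windows need not hold the promoter either.

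The first 9 measured receptors along the chromosome, Olfr1417 to Olfr1428, a run picked out after its values were seen, all had null values below every heterozygous value (8.77% of all genes, 45.3% of the other odorant receptors). They comprise 4 receptors of MOR266 and, beyond the non-receptor genes Patl1 and Osbp, all 5 of MOR239. In MOR239 the median difference was -1.47, from -2.21 to -0.58, and -1.15 without null replicate 1. Olfr1427 stood at 6.89, 7.33 and 7.46 on the heterozygous arrays and at 4.40, 5.47 and 5.19 on the null arrays. Its difference of -2.21 (SE 0.30, limma adjusted p = 0.0577) was the nearest to the threshold from outside, and without null replicate 1 it fell by 1.90 (SE 0.19, adjusted p = 0.00466). Its neighbour Olfr1428 stood at 7.73, 7.66 and 7.77 and at 5.62, 6.64 and 6.49, so its heterozygous values lay close together. Olfr1428 fell by 1.15 without null replicate 1 (SE 0.10, limma adjusted p = 0.00267), against a difference of -1.47 (SE 0.27, adjusted p = 0.126) over 6 arrays.

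Olfr1423 was measured at 7.50, 7.29 and 7.65 on the heterozygous arrays and at 4.88, 6.34 and 5.73 on the null arrays, with the lowest value again on null replicate 1. It fell by 1.44 without that array (SE 0.20, limma adjusted p = 0.0168), and over 6 arrays its difference was -1.83 (SE 0.36, adjusted p = 0.151). Olfr1424 and Olfr1426 gave weaker signals, with heterozygous means of 4.53 and 4.80 near the lower quartile of the arrays. Their differences of -0.76 and -0.58 did not pass in either fit, although Olfr1424 came just outside the threshold without null replicate 1 (-0.75, limma adjusted p = 0.0509), where Olfr1466 was the nearest inside it (adjusted p = 0.0446). A probe set that names Olfr1424, Olfr1425 and Olfr1426 together, which was not tested, stood at 6.81, 6.60 and 6.95 on the heterozygous arrays and at 5.22, 5.82 and 5.33 on the null arrays, again without overlap.

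Of the 4 MOR266 receptors that open the chromosome 19 series, 2 fell without null replicate 1. Olfr1419 stood at 6.41, 6.29 and 7.05 on the heterozygous arrays and at 5.21, 5.20 and 4.69 on the null arrays, so null replicate 1 did not set its lower edge. It fell by 1.64 without that array (SE 0.26, limma adjusted p = 0.0257), and over 6 arrays its difference was -1.55 (SE 0.25, adjusted p = 0.0861). Olfr1420 stood at 6.42, 6.55 and 6.64 and at 4.27, 5.33 and 5.46, and fell by 1.14 (SE 0.11, limma adjusted p = 0.00399) where the 6 arrays gave -1.52 (SE 0.32, adjusted p = 0.179). Olfr1417 and Olfr1418 had differences of -0.61 and -0.87 over 6 arrays and of -0.51 and -0.74 without null replicate 1, and passed in neither fit. The other 4 MOR266 receptors lie far along the chromosome, from Olfr1490 to Olfr1495. Their median difference was -0.81 over 6 arrays and -0.51 without null replicate 1. In 2 of the 4, null values lay below every heterozygous value over 6 arrays (8.77% of all genes, 45.3% of the other odorant receptors). Of these 4 receptors 0 passed in either fit. Over 6 arrays 0.456% of all genes and 8.03% of the other odorant receptors were called lower.

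**Figure D2:**
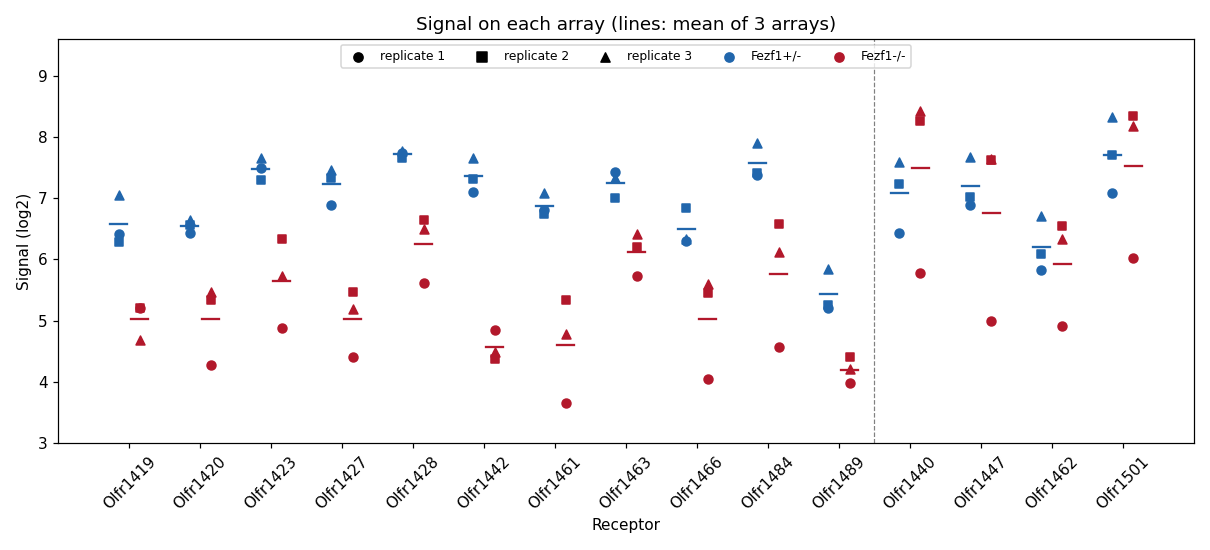
Log2 signal (vertical axis) on every array for the 11 receptors that fell without null replicate 1 (left of the dashed line) and 4 receptors with overlapping groups over 6 arrays, chosen after their values were seen (right); blue points are Fezf1+/- and red points Fezf1-/- arrays, marker shapes are replicates and lines are means of 3 arrays. Red points lie below all blue points in the first 11, and on the right null replicate 1 (red circle) lies below the other null arrays.

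MOR202, the largest subfamily, was divided. All 30 members had a negative difference over 6 arrays, with a median of -0.56, but without null replicate 1 the median was -0.19 and 11 were positive. Apart from Olfr1442 and its neighbour Olfr1443, which stood below the lower quartile on every array (3.57, 4.08 and 3.87 against 2.90, 3.03 and 3.27) and had differences of -0.77 and, without null replicate 1, -0.69 (limma adjusted p = 0.192 and 0.0984), the subfamily lies in the fourth stretch. There, the 12 consecutive receptors from Olfr1444 to Olfr1459, a run picked out after its values were seen, all had overlapping groups. Overlap is the usual state. Null values lay wholly below in 8.77% of all genes and wholly above in 9.72%, and wholly below in 45.3% of the other odorant receptors. The median difference of the 12 was -0.48 over 6 arrays, and 0.04 without null replicate 1, from -0.41 to 0.44. In all 12 the lowest of the 6 values was that of null replicate 1. Olfr1447 shows the pattern, with 6.88, 7.02 and 7.67 on the heterozygous arrays and 4.99, 7.63 and 7.63 on the null arrays. Its difference was -0.44 (95% interval -2.26 to 1.38) over 6 arrays and 0.44 (-0.10 to 0.98) without null replicate 1.

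Beyond that run, receptors that fell stood next to receptors that did not pass. Olfr1461 stood at 6.80, 6.74 and 7.08 on the heterozygous arrays and at 3.66, 5.34 and 4.79 on the null arrays. It fell by 1.81 without null replicate 1 (SE 0.19, limma adjusted p = 0.00558), and its difference over 6 arrays was -2.28 (SE 0.42, adjusted p = 0.126). The next gene, Olfr1462, stood at 5.82, 6.09 and 6.70 and at 4.90, 6.54 and 6.33, with overlapping groups and a difference of 0.23 (95% interval -0.36 to 0.82) without null replicate 1. Olfr1463 followed with 7.42, 7.003 and 7.34 against 5.73, 6.20 and 6.41, and fell by 0.95 in the 5 arrays (SE 0.15, limma adjusted p = 0.0261). Olfr1465, after it, stood at 7.02, 7.02 and 7.39 and at 5.73, 7.43 and 8.24, so that null replicates 2 and 3 exceeded every heterozygous array. Its difference of 0.70 (95% interval 0.11 to 1.28, adjusted p = 0.231 by limma) without null replicate 1 did not pass.

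Next, Olfr1466 stood at 6.29, 6.84 and 6.33 on the heterozygous arrays and at 4.05, 5.45 and 5.59 on the null arrays. It fell by 0.97 without null replicate 1 (SE 0.18, limma adjusted p = 0.0446), while Olfr1467 had a difference of -0.02 there. Olfr1471, which had the highest heterozygous mean signal of the 56 (7.79), stood at 7.65, 7.96 and 7.76 and at 5.61, 7.88 and 7.18. Its groups overlapped, and its difference was -0.26 (95% interval -0.76 to 0.24) without null replicate 1. Towards the end of the subfamily, Olfr1484 stood at 7.38, 7.42 and 7.90 and at 4.57, 6.58 and 6.13, and fell by 1.21 without null replicate 1 (SE 0.20, limma adjusted p = 0.0312). Olfr1489, its last member, stood at 5.21, 5.26 and 5.84 and at 3.98, 4.40 and 4.21, and fell by 1.13 (SE 0.20, limma adjusted p = 0.0401). Over 6 arrays the differences of Olfr1463, Olfr1466, Olfr1484 and Olfr1489 were -1.14, -1.46, -1.81 and -1.24, with limma adjusted p of 0.126, 0.358, 0.339 and 0.0964. The groups overlapped in the 4 measured receptors from Olfr1467 to Olfr1472. Null values lay wholly below in the 6 from Olfr1480 to Olfr1491 (8.77% of all genes, 45.3% of the other odorant receptors). These runs were picked out after their values were seen. From Olfr1461 to Olfr1489, 8 of 16 MOR202 receptors had null values below every heterozygous value over 6 arrays (8.77% of all genes, 45.3% of the other odorant receptors) and 5 fell without null replicate 1 (1.67% of all genes, 177 of the 959 other odorant receptors).

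The 7 receptors of MOR211 and MOR212, which end the series from Olfr1497 to Olfr1505, all had overlapping groups over 6 arrays. Null values lay wholly below in 8.77% of all genes and 45.3% of the other odorant receptors, and wholly above in 9.72% of all genes. The median difference of the 7 was -0.14 over 6 arrays, and 0.23 without null replicate 1, where 6 of 7 were positive and 0 passed. In that fit 11022 of all 19938 genes and 252 of the 959 other odorant receptors were positive. Olfr1501 stood at 7.08, 7.70 and 8.32 on the heterozygous arrays and at 6.02, 8.34 and 8.18 on the null arrays, a wide spread in both groups. Its difference was -0.18 (95% interval -1.84 to 1.47) over 6 arrays and 0.56 (-0.21 to 1.34) without null replicate 1. Olfr1497 stood at 7.47, 7.63 and 8.02 and at 6.34, 7.89 and 7.83, with differences of -0.36 and 0.15 in the 2 fits. For Olfr1500 the interval of the difference over 6 arrays was narrower, from -0.39 to 0.49, and its values were 6.18, 5.94 and 6.06 against 5.74, 6.22 and 6.36. Olfr1504 differed by 0.01 over 6 arrays and by 0.47 (-0.10 to 1.04) without null replicate 1. Olfr1502 stayed between 3.10 and 3.20 on all 6 arrays, below their lower quartile, where its probe set carries little signal. A probe set that names Olfr1502 and Olfr1505 together, not tested, stood at 6.82, 6.94 and 7.50 and at 5.16, 7.22 and 7.82. Olfr1496, the single MOR127 receptor, lies just before them and differed by -1.16 over 6 arrays and by -0.89 without null replicate 1, with groups that did not overlap and no call in either fit (limma adjusted p = 0.254 and 0.0790).

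MOR214 and MOR215 lie in the second stretch, after MOR239. Olfr1440 of MOR215 had the highest difference of the 56 in both fits. It stood at 6.44, 7.23 and 7.59 on the heterozygous arrays and at 5.78, 8.26 and 8.41 on the null arrays, so null replicate 1 was the lowest of all arrays and the other null arrays were the highest. Its difference was 0.40 (95% interval -1.43 to 2.23) over 6 arrays and 1.25 (0.51 to 1.99, limma adjusted p = 0.108) without null replicate 1. Its neighbour of the same subfamily, Olfr1441, lay the other way, at 5.20, 5.97 and 5.58 against 4.88, 4.49 and 4.57. The difference of Olfr1441 was -0.93 over 6 arrays and -1.05 without null replicate 1 (limma adjusted p = 0.229 and 0.0607). The 3 measured MOR214 receptors, Olfr1431, Olfr1434 and Olfr1436, had differences of -1.09, -1.09 and -0.14 over 6 arrays and of -0.62, -0.76 and -0.22 without null replicate 1, with overlapping groups over 6 arrays and no call in either fit. A probe set that names these 3 with Olfr235 and Olfr1437, not tested, stood at 8.44, 8.75 and 9.15 and at 6.67, 9.12 and 9.02.

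**Figure D3:**
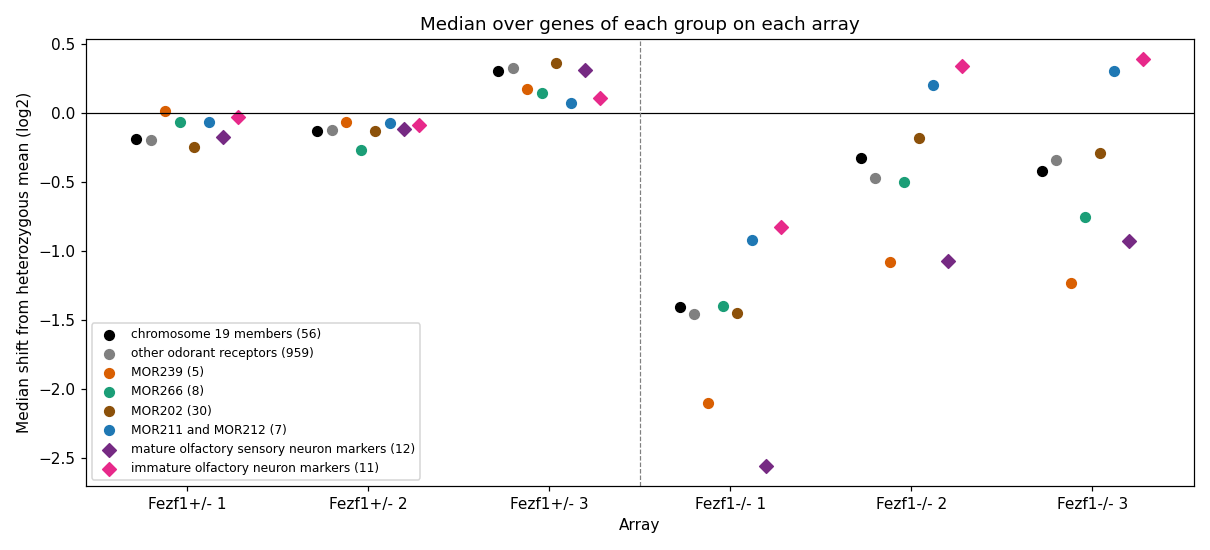
Median over the genes of each group of their shift from the heterozygous mean (log2, vertical axis) on each of the 6 arrays (horizontal axis); circles are receptor groups, diamonds are neuron markers, and the number of genes is in parentheses. On null replicates 2 and 3 the MOR239 median lies at -1.08 and -1.23 and the MOR211 and MOR212 median at 0.20 and 0.30, and every group shown is lowest on null replicate 1.

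The subfamily medians can be set beside those of neuronal markers on the same arrays. On null replicates 1, 2 and 3 the 12 markers of mature olfactory neurons had median shifts of -2.56, -1.07 and -0.93, and the 11 markers of immature neurons -0.82, 0.34 and 0.39. MOR239 had shifts of -2.10, -1.08 and -1.23, MOR266 of -1.40, -0.50 and -0.76, MOR202 of -1.45, -0.18 and -0.29, and MOR211 with MOR212 of -0.92, 0.20 and 0.30. The part of neuron maturity in the receptor differences was not tested.

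Other genes of the same chromosomal interval were read from the same fits. Whether the region moved as a whole was not tested. Olfr76, Olfr262 and Olfr235 are receptors that lie among the 56 but carry numbers outside the range. Their groups overlapped, with differences of -0.44, -0.31 and -0.37 over 6 arrays and of -0.18, 0.01 and 0.39 without null replicate 1. Between the first and the last of the 56 lie 12 protein-coding genes that are not receptors. All lie before the fourth stretch, which holds 40 of the 56 receptors and by its definition no such gene. Of the 12 genes, 10 were measured. Their median difference was 0.06 over 6 arrays and 0.02 without null replicate 1, and 0 passed by limma in either fit. At an unadjusted limma p under 0.05 over 6 arrays there were 0 lower genes and 1 higher gene. In 5 of the 10 the heterozygous mean lay below the highest of the arrays' lower quartiles. These were Pfpl, Mpeg1, Gm4952, Glyat and Keg1, in which a fall could hardly show. In Patl1, Osbp, Dtx4, Fam111a and Lpxn the differences ran from -0.15 to 0.28 over 6 arrays. Without null replicate 1 they ran from -0.15 to 0.11. Osbp, a sterol-binding protein gene next to the MOR239 receptors, stood at 9.31, 9.19 and 9.31 and at 9.04, 9.23 and 9.19. Glyat and Keg1, which flank Olfr1442 and Olfr1443, gave signals below the lower quartile on every array and had differences of -0.08 and 0.03 over 6 arrays and of -0.15 and 0.06 without null replicate 1. Mpeg1, a macrophage gene, stood at 8.17 on null replicate 1 and between 4.19 and 4.62 on the other 5 arrays.

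Genes that act with or upstream of receptors were read from the same fit. Of 22 measured genes of transduction and receptor trafficking, 0 fell and 1 rose over 6 arrays, with a median difference of -0.99, and of -0.57 without null replicate 1 (over all genes 0.456% were called lower and 0.0953% higher). Every mature-neuron marker used above except Kirrel2 is among these 22, so the lists are not separate observations. Before adjustment, 12 of the 22 were lower with p under 0.05 (5.25% of all genes), and in 14 the null values lay below every heterozygous value (8.77% of all genes). The 1 that rose was Grk3, a kinase that desensitises activated receptors, from 5.12 ± 0.06 to 5.93 ± 0.05 (SD, n = 3 each, limma adjusted p = 0.0219). Without null replicate 1, 5 fell (1.67% of all genes) and Grk3 rose (0.993%). Those that fell were Omp, a marker protein of mature neurons (-1.12), Stoml3 of the cilia (-1.17), the exchanger Slc24a4 (-1.15), the adenylate cyclase Adcy3 (-0.93) and the phosphodiesterase Pde1c (-0.89). The chaperones that carry receptors to the cell surface, Rtp1 and Rtp2, had differences of 0.09 and -0.14 in that fit. Of 21 measured regulators of receptor choice, 0 passed over 6 arrays by limma (0.456% of all genes were called lower and 0.0953% higher). An unadjusted p under 0.05 was reached by 1 lower gene (5.25% of all genes) and 0 higher genes (4.23%). The median difference of the 21 was -0.15, or -0.05 without null replicate 1. Lhx2, Ldb1 and Ebf1, which act at receptor enhancers, had differences of -0.15, -0.25 and -0.23, and of 0.26, -0.05 and 0.17 without null replicate 1. In that fit Nfix alone of the list fell (-0.72, limma adjusted p = 0.0416), where 1.67% of all genes were called lower. Ebf4 (-0.82) and Uncx (-0.87), transcription factors of olfactory neurons, had the smallest p-values of the list over 6 arrays, differed by -0.48 and -0.41 without null replicate 1, and passed in neither fit.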

How the data were processed

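From each sample 100 ng of total RNA was labelled, per the labels' protocols, and hybridised to an Affymetrix whole-transcript mouse array. The deposited table holds log2 signals per probe set; per the submitters' processing notes, the authors used Affymetrix Expression Console and GCRMA, a background-adjusting summary. Versions, order and genome build are not given in the sources used here. Base 2 was inferred from the range of 2.14 to 14.5. Symbols came from the platform annotation of 2016, updated through Entrez numbers to RefSeq GRCm38.p6 names (21698 of 21789 probe sets with 1 symbol matched), which also gave gene order and systematic names. Where a gene had several probe sets, that of highest mean signal across the 6 arrays was kept. Null and heterozygous arrays were compared across all 19938 genes with limma 3.58.1 in R 4.3.3 (lmFit, eBayes, two-sided, Benjamini-Hochberg, threshold 0.05), after the procedure was tested on simulated data. Those simulated data gave both groups the spread of the heterozygous arrays, so they did not check the fit with an array like null replicate 1. P-values reflect only the scatter among these samples, which may be technical, and 3 arrays per group limit precision. The fit without null replicate 1 rests on 2 null arrays, which correlated at 0.995 with each other. Of the 11 receptors that fell in that fit, 1 also passed over 6 arrays. An exact test of 3 against 3 values cannot go below p = 0.1 and was not used.

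The receptors, the gene lists and the tests were chosen with earlier results of these data known. Named receptors were those called in either fit, the 6 with the highest heterozygous mean, the 3 largest differences each way and those nearest the threshold; other receptors named fall outside this rule and were chosen after their values were seen. Close receptor copies may share probes, so single values are uncertain to that extent. Same-numbered arrays were not treated as pairs. Alternatives are in the closing section.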

Additional observations from a re-analysis of the deposited data

How the results depend on the processing

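The fall of Olfr1442 passed in all 13 alternatives in which it was tested, with differences from -2.93 to -2.64 and limma adjusted p from 0.000113 to 0.0425; it was not tested among genes above the median mean, where 12 of the 56 receptors remained and 0 were called. The count of receptors called lower was 1 in the main fit, 16 with array weights, which gave null replicate 1 a weight of 0.14, and 2 with the replicate number as a block, and 1 to 11 over the fits that each left out 1 array, the 11 without null replicate 1; 0 were called higher in any. Over all genes 110 were called, against 740 with array weights, 24 among genes above the median mean, 57 with a floor of 16 on the linear scale and 40 to 531 over the fits that each left out 1 array. The block gave 88 genes and 2 receptors. Deviations of same-numbered arrays from their group means correlated at 0.23, -0.33 and 0.54, and 3 of 6 arrays correlated best with their own number. Null replicate 1 weighs heavily on these deviations, so they cannot decide whether same-numbered arrays were paired. The receptor median ranged from -0.85 to -0.36 over the fits that left out 1 array and from -0.75 to -0.30 in the other alternatives. Among the other 17 named receptors the direction turned in Olfr1497 (0.14 with array weights), Olfr1501 (0.54 with array weights) and Olfr1504 (-0.011 with array medians centred), and over the fits that left out 1 array Olfr1440 ran from -0.064 to 1.25, Olfr1497 from -0.62 to 0.15, Olfr1500 from -0.078 to 0.23, Olfr1501 from -0.59 to 0.56 and Olfr1504 from -0.30 to 0.47. The cause of these changes was not tested. Signal over background could not be examined per probe, which limits receptors near the lower quartile.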
